A study of Mus musculus with 4 samples.

Results

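The 7 loci described here are mouse genes outside the usual marker genes of regulatory T (Treg) cells, Sh3rf1, Nsmce2, Stk39, Niban1 (also called Fam129a), Cdk6, Akap13 and Prkch. They were selected on the number of chromatin regions around them that the deposited tables list as more accessible in Treg cells than in other T helper cells, so those numbers are a description of the choice and carry no test. A region belonged to a locus when its midpoint lay inside the gene, or outside all protein-coding genes and within 100 kb of an end of that gene as the nearest. By this rule 404 of the 92372 listed rows, or 206 of 52537 regions after overlapping rows were merged, fell to the 7 genes out of 21900 protein-coding genes. The merged regions numbered 21 at Sh3rf1, 37 at Nsmce2, 12 at Stk39, 21 at Niban1, 22 at Cdk6, 51 at Akap13 and 42 at Prkch. Nearest to the limit of the reach were 2 regions at Cdk6, 1 included at 93645 bp from the gene and 1 left out at 142235 bp.

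The study profiled open chromatin by ATAC-seq, in which the Tn5 transposase cuts and tags accessible DNA, in T helper cells of mice sensitised and challenged with house dust mite (HDM), a model of allergic asthma. There were 4 sorted populations of CD3+CD4+ cells, each with 1000 cells and 3 biological replicates at day 15 per the titles and protocol. Th2 cells were CD44+ST2+CD30L+, non-Th2 memory cells (titled other effector) CD44+ST2-CD30L+, and Treg cells CD25hiCD30L-, all from lung with airways. Naive cells were CD44loCD62Lhi and came from the mediastinal lymph node (mLN), so in every comparison with naive cells the cell state and the tissue cannot be told apart. The labels give no strain, sex or age, and all 4 populations came from HDM-treated mice, with no untreated group among them. The Treg gate rests on CD25 and the absence of CD30L, and not on Foxp3. In bulk chromatin a larger share of open cells and a wider opening in each cell cannot be told apart.

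Treg cells restrain other lymphocytes through the transcription factor Foxp3, and in lung and other non-lymphoid tissues they carry programmes that partly overlap with those of Th2 cells, including Gata3 and the IL-33 receptor ST2. Accessible regions inside genes are often enhancers, short stretches where transcription factors displace nucleosomes, and the regions of a cell type are usually more specific to it away from gene starts than at them. A region inside a gene does not have to act on that gene. Of the 7 genes, 4 act in signalling. Sh3rf1 (POSH) is a scaffold and ubiquitin ligase of the Rac and JNK kinase cascade, Stk39 (SPAK) is a kinase that acts below the WNK kinases on cation-chloride cotransporters, Prkch encodes protein kinase C eta, and Akap13 anchors protein kinase A and activates RhoA. The others serve cell division, genome upkeep and stress: Cdk6 is the partner kinase of D-type cyclins, Nsmce2 is the SUMO ligase of the SMC5/6 complex, and Niban1 is a stress-responsive protein linked to the control of translation.

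Promoter sequences are shown for the 3 member genes in the promoter table whose start lies in a listed region. A noncoding RNA start inside Sh3rf1, whose region is higher in Treg than naive cells, is shown too. At these 4 the accessibility values can be read against known letters. They cover 250 bases before to 50 bases after the start, are taken from RefSeq (GRCm38.p6) and are printed 5′ to 3′ on the strand of the gene. Of the 7 genes, 4 were in the promoter table, Niban1, Stk39, Cdk6 and Akap13. Sh3rf1, Nsmce2 and Prkch were not matched, so their promoters are not shown. Listed regions also cover the lower-numbered gene ends of Sh3rf1 (chr8:61223682-61224702) and Nsmce2 (chr15:59373738-59375014). Both are listed only against other effector cells in the authors' deposited tables. The log2 folds were 6.10 for Treg and 6.18 for Th2 cells at Sh3rf1, and 5.83 for Treg cells at Nsmce2. The noncoding RNA inside Sh3rf1 is 1700001D01Rik. Capitals mark matches on either strand to the motifs searched that were found: the GC box GGGCGG, the CCAAT box CCAAT, the E box CACGTG and the TCF/LEF core CTTTGA.
Niban1: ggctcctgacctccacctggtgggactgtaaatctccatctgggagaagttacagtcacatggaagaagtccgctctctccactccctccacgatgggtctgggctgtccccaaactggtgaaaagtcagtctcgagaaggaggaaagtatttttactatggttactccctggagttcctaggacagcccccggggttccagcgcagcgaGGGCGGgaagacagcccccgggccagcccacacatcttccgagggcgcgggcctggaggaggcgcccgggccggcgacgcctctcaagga
Cdk6: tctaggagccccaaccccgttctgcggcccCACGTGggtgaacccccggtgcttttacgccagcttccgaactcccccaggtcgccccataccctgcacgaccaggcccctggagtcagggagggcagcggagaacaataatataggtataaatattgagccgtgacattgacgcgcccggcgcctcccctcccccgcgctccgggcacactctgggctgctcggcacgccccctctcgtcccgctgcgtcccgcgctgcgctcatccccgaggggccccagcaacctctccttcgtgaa
Akap13: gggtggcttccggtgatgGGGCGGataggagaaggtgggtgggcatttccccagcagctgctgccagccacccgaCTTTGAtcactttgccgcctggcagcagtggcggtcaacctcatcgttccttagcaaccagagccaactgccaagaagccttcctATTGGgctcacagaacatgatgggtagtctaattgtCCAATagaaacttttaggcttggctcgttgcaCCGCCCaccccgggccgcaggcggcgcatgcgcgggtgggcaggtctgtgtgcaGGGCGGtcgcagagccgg
1700001D01Rik: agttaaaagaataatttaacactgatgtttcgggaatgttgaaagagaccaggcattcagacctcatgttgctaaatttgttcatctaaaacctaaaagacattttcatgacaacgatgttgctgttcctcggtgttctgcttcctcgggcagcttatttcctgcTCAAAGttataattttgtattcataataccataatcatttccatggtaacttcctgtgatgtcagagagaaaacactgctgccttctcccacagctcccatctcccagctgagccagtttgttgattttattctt
The windows are chr1:151571123-151571422 on the plus strand for Niban1, chr5:3343643-3343942 on the plus strand for Cdk6, chr7:75455284-75455583 on the plus strand for Akap13 and chr8:61288823-61289122 on the minus strand for 1700001D01Rik. The 3 protein-coding promoters were rich in CpG, with 16 sites at Niban1, 27 at Cdk6 and 17 at Akap13, whereas that of 1700001D01Rik held 4. The median over 32851 promoters of the table was 7. GC content was 61.3% at Niban1, 66.7% at Cdk6, 61.3% at Akap13 and 39% at 1700001D01Rik, against a median of 52.7%. The GC box was found 1 time at Niban1 and 3 times at Akap13, and 35.7% of all promoters of the same length hold it. The CCAAT box was found 2 times at Akap13 (37.4% of all promoters), the E box 1 time at Cdk6 (7.15%) and the TCF/LEF core 1 time each at Akap13 and 1700001D01Rik (16%). The letters of the RUNX motif TGTGGT, the forkhead motif TGTTTAC, the STAT motif TTCNNNGAA and the AP-1 motif TGANTCA were in none of the 4 windows, and 16.8%, 3.65%, 8.3% and 7.81% of all promoters hold them.

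Of the 3 protein-coding promoters shown, Niban1 alone lay in a region listed as higher in Treg than in naive cells. That region, chr1:151571153-151572489, covers 270 of the 300 bases printed for Niban1, and its log2 fold in the authors' deposited tables was 8.22 for Treg over naive and 6.59 for Th2 over naive cells. The Cdk6 promoter lay whole in chr5:3343555-3344803, which the authors' deposited tables list only against other effector cells, at 6.70 for Treg and 7.71 for Th2. At Akap13 the promoter lay whole in chr7:75455094-75456164, also listed only against other effector cells in the authors' deposited tables, at 8.22 for Treg and 7.79 for Th2. The region over the start of 1700001D01Rik, chr8:61288833-61289060, had a log2 fold of 4.72 for Treg over naive and 4.55 for Treg over other effector cells in the authors' deposited tables. At Stk39 no listed region reached the promoter, and the nearest was 35299 bp away. The start of another noncoding RNA, Gm36470, fell in the same cluster of regions as that of Cdk6, and the start of AU020206 in a region assigned to Akap13, chr7:75781951-75782374.

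The deposited tables hold 5300 to 28175 regions for each of the 6 pairs of populations, with the authors' log2 fold and no count, p-value, depth or replicate value. No spread or test could therefore be attached to any value, and depth is unknown. The smallest absolute fold was 3.41 to 3.95 depending on the table, so a region that is not listed is not shown to be equal. All rows of the 3 tables with other effector cells are lower in those cells, and being listed as higher in Treg than other effector cells therefore says less than the other directions. The label of the Treg population was checked on 16 Treg genes, whose 185 regions included 51 (27.6%) higher in Treg than naive and 33 (17.8%) higher in Treg than Th2 cells, against 1 and 2 in the opposite directions. Of the 16 genes, 12 had a region higher in Treg than naive and 11 a region higher in Treg than Th2 cells. Foxp3 had 3 regions and Il2ra, which encodes the sorted CD25, also 3 regions higher in Treg than Th2 cells. Each had only 1 region higher in Treg than naive cells, of 6 at Foxp3 and 17 at Il2ra. The 9 Th2 genes had 18 of 74 regions (24.3%) higher in Treg than naive cells, 9 of them at Il1rl1, which encodes the sorted ST2, and 6 at Pparg. Of the same 74, 38 (51.4%) were higher in Th2 than naive cells. Between Treg and Th2 cells, 1 (1.35%) was higher in Treg and 7 (9.46%) were higher in Th2 cells. Of 23 B cell, 27 myeloid and 17 CD8 and NK cell marker regions, 0, 2 and 0 were higher in Treg than naive cells, and 0, 0 and 1 were higher in Treg than Th2 cells.

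Every locus held regions more accessible in Treg than in naive cells, but the loci differed in what Th2 cells showed there. Regions were higher in Treg than naive cells at 58 of 206 (28.2%), where 6.64% of all merged regions were, and this is among the counts on which the genes were chosen. They were higher in Treg than Th2 cells at 25 (12.1%, against 3.34% of all regions) and higher in Treg than other effector cells at 148 (71.8%, against 46.7%). A set of 17 (8.25%, against 1.21%) was higher in Treg than in all 3 other populations. No region of the series was higher in Treg than both naive and Th2 cells without being higher than other effector cells too. Being above all 3 therefore says no more than being above naive and Th2 cells. Median log2 folds in the authors' deposited tables were 5.92 for Treg over naive, 5.69 for Treg over Th2 and 5.56 for Treg over other effector cells at these loci, against 5.72, 5.57 and 5.39 over all regions listed in those directions. The loci thus had more listed regions, with folds of about the size seen elsewhere.

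**Figure D1:**
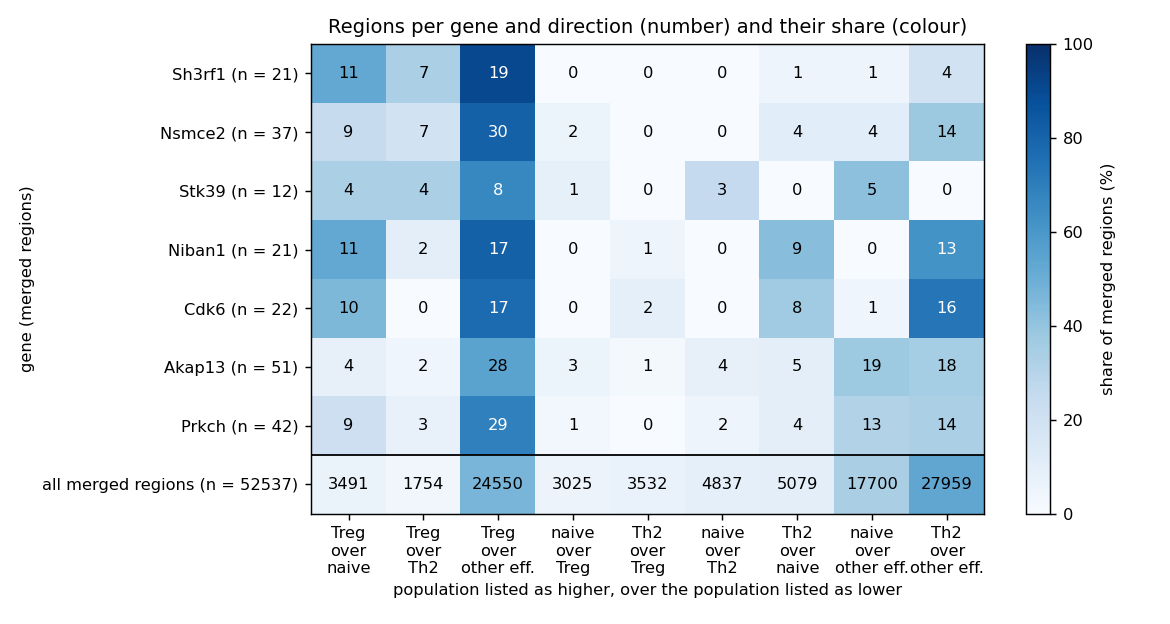
Number of merged regions of each gene (rows) listed in each of 9 directions (columns), with the colour giving the share of the gene's merged regions in percent. The last row gives all 52537 merged regions. Sh3rf1 and Niban1 each have 11 regions higher in Treg than naive cells, and Cdk6 has 0 higher in Treg than Th2 cells.

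In the directions against Treg cells the loci had few regions. Naive cells were higher than Treg cells at 7 of 206 regions (3.4%, against 5.76% of all regions), and Th2 cells were higher than Treg cells at 4 (1.94%, against 6.72%). These 2 counts come from the same contrasts as the choice and are given as a description. Of the comparisons without Treg cells, Th2 cells were higher than naive cells at 31 regions (15%, against 9.67%), and naive cells higher than Th2 cells at 9 (4.37%, against 9.21%). Against other effector cells, Th2 cells were higher at 79 regions (38.3%, against 53.2%) and naive cells at 43 (20.9%, against 33.7%). Every merged region is listed in at least 1 direction, so a set rich in regions higher in Treg cells leaves less room for the rest. Of 31 regions higher in Th2 than naive cells, 9 were at Niban1 and 8 at Cdk6, whereas Stk39 had 0 and Sh3rf1 had 1.

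The regions fall into kinds that differ between loci. Sh3rf1, Nsmce2 and Stk39 held 5, 5 and 4 of the 17 regions higher in Treg than in all 3 other populations, Prkch held 2, Akap13 held 1, and Niban1 and Cdk6 held 0. Niban1 and Cdk6 held regions higher than naive cells in both Treg and Th2 cells, 8 of 21 (38.1%) at Niban1 and 7 of 22 (31.8%) at Cdk6, where 2.62% of all merged regions were of that kind. At Cdk6 as many regions, 7 (31.8%), were above other effector cells only, where 38% of all merged regions were. At Akap13 23 of 51 regions (45.1%) were not listed as higher in Treg cells against any population, where 53.2% of all merged regions were not. As many at Akap13, 23 (45.1%), were above other effector cells only, against the same 38%. These kinds were seen in the values and are no groups of the study. Of the regions higher in Treg than naive cells, 8 of 11 at Niban1 and 7 of 10 at Cdk6 were higher in Th2 than naive cells too. At these 2 loci most were therefore not marks of Treg cells alone. Over the series 1378 of the 3491 regions higher in Treg than naive cells were of this kind, and over the 7 loci 21 of 58.

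**Figure D2:**
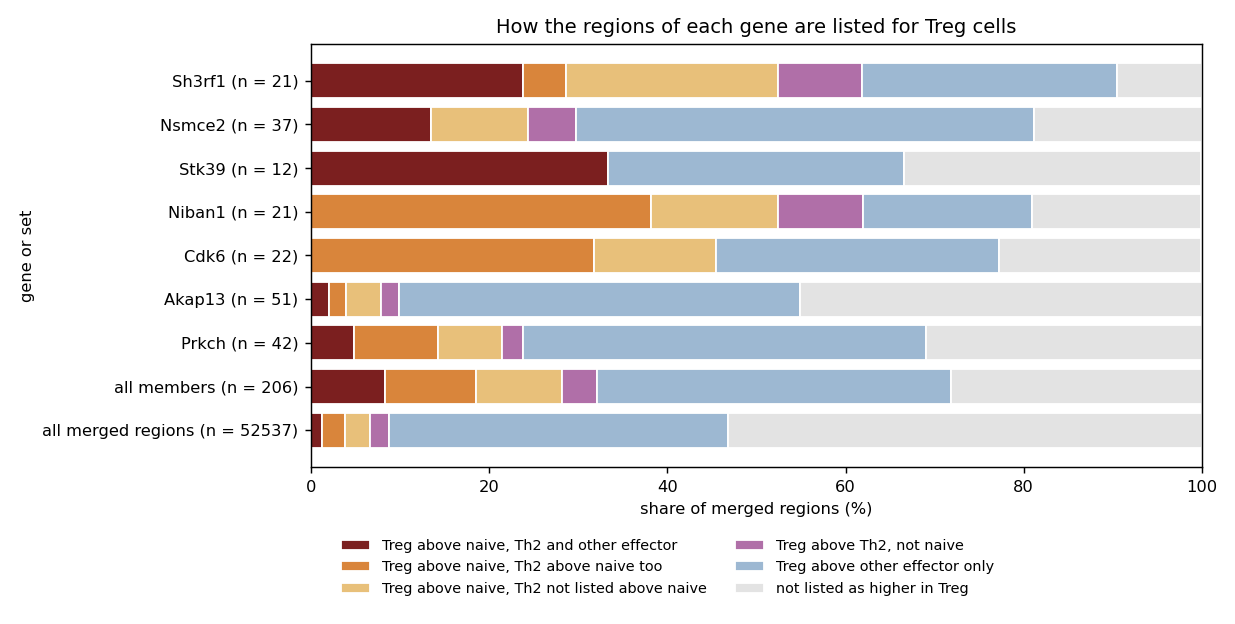
Share of merged regions (percent) of each gene, of the 7 genes together and of all regions, by how Treg cells are listed. The dark red share, Treg above all 3 other populations, is 33.3% at Stk39 and 23.8% at Sh3rf1, and the orange share, Treg and Th2 both above naive, is 38.1% at Niban1.

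Sh3rf1, the JNK scaffold, had regions higher in Treg cells in every comparison and none on the opposite side. The gene spans chr8:61224083-61465293 (GRCm38), and 11 of its 21 regions were higher in Treg than naive, 7 higher in Treg than Th2 and 19 higher in Treg than other effector cells. No region of Sh3rf1 was listed as higher in naive or Th2 than in Treg cells. The region with the largest fold, chr8:61270498-61271209, had log2 folds in the authors' deposited tables of 7.76 over naive, 7.78 over Th2 and 7.60 over other effector cells. Its neighbour chr8:61269800-61270414 had 7.51, 7.54 and 7.35 over the same populations in the authors' deposited tables. These 2 regions lie next to each other, 46.0 and 46.8 kb into the gene from its lower-numbered end, and Treg cells stood alike above all 3 other populations there. The other 3 regions above all 3 populations were chr8:61277125-61277488, chr8:61277660-61277973 and chr8:61320938-61322401. Their log2 folds over naive cells in the authors' deposited tables were 4.87, 7.32 and 6.54, and those over Th2 cells 4.88, 5.30 and 6.53. In all, 7 of the Treg-high regions (higher in Treg than naive or Th2 cells) of Sh3rf1 fell in 19.3 kb, chr8:61269800-61289060, whose last region holds the start of the noncoding RNA shown above. At 1 region of Sh3rf1, chr8:61305297-61306338, Th2 cells were above naive cells too, by 5.47 against 5.64 for Treg cells in the authors' deposited tables.

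Stk39, the SPAK kinase, had the fewest regions, and each of its regions higher in Treg than naive cells was above all 3 other populations. The gene spans chr2:68210445-68472108 on the minus strand, and 4 of its 12 regions were higher in Treg than naive cells, the same 4 higher in Treg than Th2 cells. At chr2:68289111-68289826 the log2 folds in the authors' deposited tables were 7.08 over naive, 7.09 over Th2 and 6.91 over other effector cells. The regions chr2:68301852-68302461, chr2:68303616-68303935 and chr2:68434378-68435050 had 5.21, 4.37 and 5.68 over naive and 5.75, 4.38 and 5.69 over Th2 cells in the authors' deposited tables. No region of Stk39 was listed as higher in Th2 cells than in any population, the one locus of the 7 where that held. Naive cells were higher than Treg cells at 1 region of the gene, chr2:68320588-68320840 (4.23 in the authors' deposited table). They were higher than Th2 cells at 3 regions and higher than other effector cells at 5. At chr2:68435550-68436633 both Treg (4.45) and naive cells (8.02) were above other effector cells in the authors' deposited tables.

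Prkch, which encodes protein kinase C eta, mixed Treg-high, Th2-shared and naive-high regions. It spans chr12:73584796-73778185, and of its 42 regions 9 were higher in Treg than naive, 3 higher in Treg than Th2 and 29 higher in Treg than other effector cells. The region chr12:73745885-73746370 was above all 3 others, with log2 folds in the authors' deposited tables of 7.54 over naive, 7.55 over Th2 and 7.37 over other effector cells. The second such region, chr12:73719948-73720170, had 5.09, 6.04 and 5.85 in the authors' deposited tables. Over other effector cells the largest Treg fold was 8.41 in the authors' deposited table, at chr12:73715406-73716277, which is listed for no other comparison of Treg cells. The 1 Prkch region lower in Treg cells was chr12:73698332-73699848, where naive cells stood 8.86 above Treg and 8.85 above other effector cells in the authors' deposited tables. Naive-high and Treg-high regions thus lie side by side inside the gene. Just past the upper end of the gene, at chr12:73779212-73779941, Th2 cells were 8.87 and Treg cells 7.37 above naive cells in the authors' deposited tables, the largest fold of Th2 over naive cells at the 7 loci.

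Akap13, the protein kinase A anchor and RhoA activator, had the most regions and the smallest share of regions higher in Treg than naive or other effector cells. It spans chr7:75455526-75754609, the longest of the 7 genes, and 16 of its 51 regions lay outside it. Only 4 regions were higher in Treg than naive cells and 2 higher in Treg than Th2 cells, while 3 were higher in naive and 1 in Th2 than in Treg cells. Its share higher in Treg than naive cells, 7.84%, was near the 6.64% of all merged regions, so that share does not set Akap13 apart as a Treg locus. The largest Treg fold over naive cells, 7.75 in the authors' deposited table, was outside the gene at chr7:75387784-75388398, and the largest over other effector cells, 8.37, was also outside, at chr7:75796029-75796963. The single region above all 3 others, chr7:75745110-75745477, had 4.72 over naive, 5.32 over Th2 and 6.19 over other effector cells in the authors' deposited tables. Naive cells stood 8.22 above Treg cells at chr7:75600126-75601360 in the authors' deposited table, and 4.74 and 5.02 above them at chr7:75517761-75518042 and chr7:75732568-75733109. The region higher in Th2 than Treg cells was chr7:75666685-75667417, by 5.28 in the authors' deposited table. Of its 51 regions 28 (54.9%) were higher in Treg and 19 (37.3%) higher in naive than other effector cells, against 46.7% and 33.7% of all merged regions.

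Cdk6, the kinase of D-type cyclins, was more accessible in Treg than naive cells without any region listed as higher in Treg than Th2 cells. The gene spans chr5:3341004-3531008, and 10 of its 22 regions were higher in Treg than naive, 0 higher in Treg than Th2 and 17 higher in Treg than other effector cells. The region chr5:3494062-3495194 had the largest fold of Treg over naive cells at the 7 loci, 8.72, beside 7.44 for Th2 over naive and 8.54 for Treg over other effector cells in the authors' deposited tables. It opens a run of 6 Treg-high regions in 15.8 kb, chr5:3494062-3509874, and 5 of the 6 were higher in Th2 than naive cells as well. Within that run the order of Treg and Th2 cells changed from region to region. At chr5:3508429-3508763 the log2 fold over naive cells in the authors' deposited tables was 7.04 for Treg and 6.23 for Th2, whereas at chr5:3502439-3503082 it was 5.80 for Treg and 7.25 for Th2. The table of Treg against Th2 cells lists Cdk6 regions only on the side of Th2 cells, at chr5:3420288-3421125 (6.31 in the authors' deposited table) and chr5:3369404-3369553 (5.19). No region of Cdk6 was higher in naive cells than in Treg or Th2 cells.

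Nsmce2, the SUMO ligase of the SMC5/6 complex, held a run of Treg-high regions deep inside the gene. It spans chr15:59374198-59601689, and of its 37 regions 9 were higher in Treg than naive, 7 higher in Treg than Th2 and 30 higher in Treg than other effector cells. The largest fold over naive cells was at chr15:59520388-59520883, with 6.76 over naive and 5.25 over Th2 cells in the authors' deposited tables. At chr15:59526330-59526502 Treg cells were 6.60 above naive and 6.61 above Th2 cells in the authors' deposited tables, the largest fold over Th2 cells at the gene. The other 3 regions above all 3 populations were chr15:59537897-59538946, chr15:59541953-59542229 and chr15:59543645-59543918, with 6.50, 4.98 and 4.03 over naive and 6.60, 4.99 and 4.42 over Th2 cells in the authors' deposited tables. All 5 lay between 146.4 and 169.6 kb from the lower-numbered end of the gene. Over other effector cells the largest fold was 7.72 in the authors' deposited table, at chr15:59596162-59597071. Naive cells were above Treg cells at chr15:59486035-59486524 (5.11 in the authors' deposited table) and chr15:59570991-59571220 (4.90), one on each side of the run. No region of Nsmce2 was higher in Th2 than in Treg cells, although 4 regions were higher in Th2 than naive cells.

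Niban1, the stress-responsive protein, was the only locus of the 7 with a region higher in Treg than naive or Th2 cells at most 1 kb from either gene end, the one at its start. It spans chr1:151571373-151721432 on the plus strand, and of its 21 regions 11 were higher in Treg than naive, 2 higher in Treg than Th2 and 17 higher in Treg than other effector cells. At the start, chr1:151571153-151572489, Treg cells were 8.06 and Th2 cells 6.43 above other effector cells in the authors' deposited tables, beside the folds over naive cells given with its sequence. A second large fold lay inside the gene at chr1:151682671-151683383, where Treg cells were 7.83 and Th2 cells 5.05 above naive cells in the authors' deposited tables. The order was the opposite at chr1:151689144-151689358, with 4.95 for Treg and 6.46 for Th2 over naive cells in the authors' deposited tables. The 2 regions higher in Treg than Th2 cells, chr1:151552444-151552593 outside the gene (4.70 in the authors' deposited table) and chr1:151660298-151660582 inside it (4.56), were not listed against naive cells. At 1 region, chr1:151625724-151625873, Th2 cells were 5.67 above Treg cells in the authors' deposited table. No region of Niban1 was listed as higher in naive cells than in any population.

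**Figure D3:**
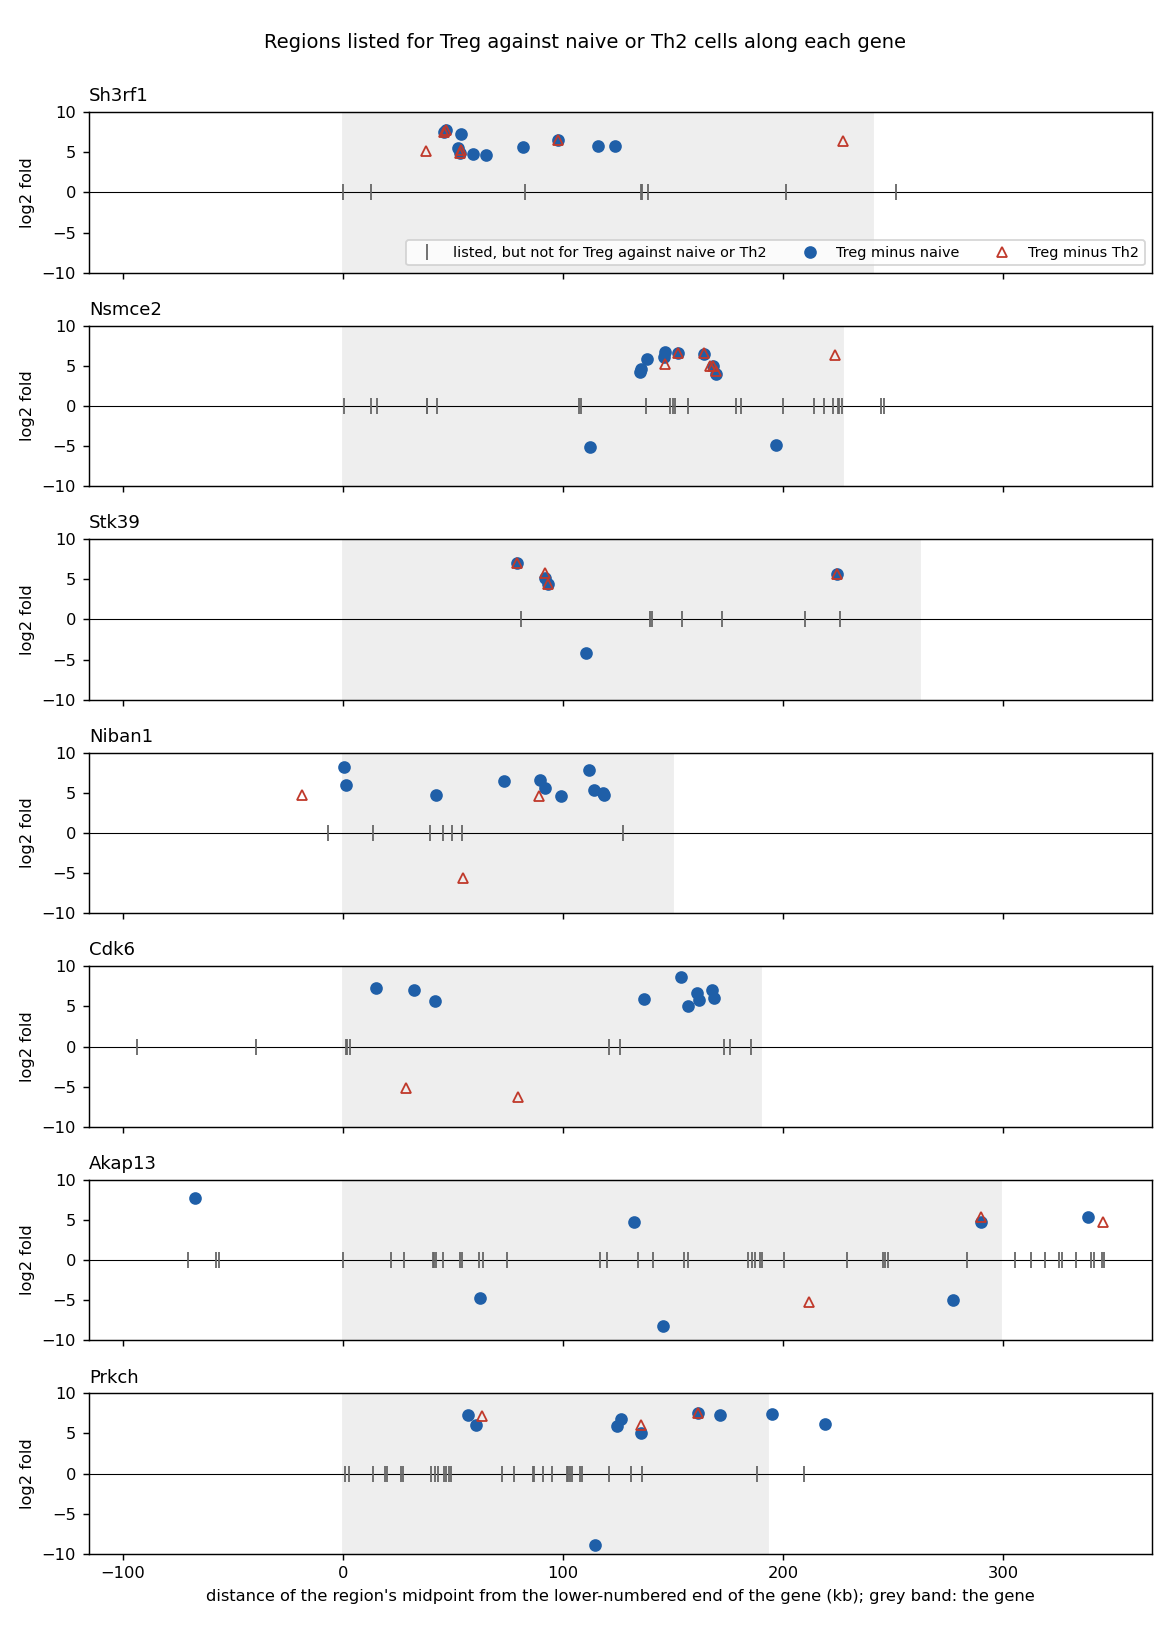
Log2 fold (authors' values) of each region listed for Treg against naive cells (filled circles) or Th2 cells (open triangles), by distance in kb of its midpoint from the lower-numbered end of the gene, with the gene as a grey band. Values above 0 are higher in Treg cells, and ticks at 0 mark regions listed in other comparisons. The most Treg-high regions within 20 kb are 7 at Sh3rf1, 6 at Nsmce2, 6 at Cdk6, 5 at Niban1, 3 at Stk39, 3 at Prkch and 2 at Akap13.

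Where Treg and Th2 cells were both listed over naive cells at the same coordinates, the 2 folds can be subtracted. This was possible at 21 regions of these loci, and Treg cells were the higher at 14 of them, with a median difference (Treg minus Th2, computed here) of 0.60 and a range of -1.51 to 2.80. Over all 1379 such regions of the series Treg cells were the higher at 52.1%, with a median of 0.07. By gene, the median was 0.93 over 8 regions at Niban1, 0.12 over 7 at Cdk6 and 1.34 over 4 at Prkch. The largest difference toward Treg cells was 2.80, at chr12:73641209-73641759 in Prkch, and the largest toward Th2 cells -1.51, at the Niban1 region chr1:151689144-151689358. None of these 21 regions was listed between Treg and Th2 cells, so the differences are below what the authors' table of Treg against Th2 cells holds, and no replicate error can be given for them. Through other effector cells the same subtraction could be made at 52 regions, where Treg cells were the higher at 31, with a median of 0.48, against 52% and 0.05 over all 11971 such regions. Cdk6 was split evenly there, with 6 of 12 regions higher in Treg cells. The genes were chosen on counts of regions higher in Treg cells. A lean toward Treg cells in either subtraction is therefore not independent of the choice and carries no test.

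**Figure D4:**
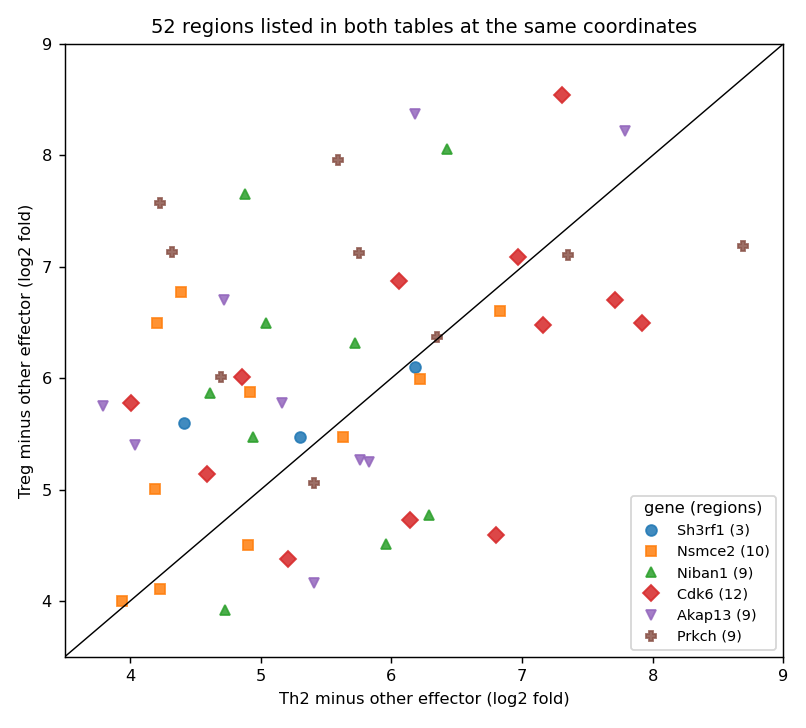
Log2 fold (authors' values) of Treg minus other effector cells (vertical axis) against Th2 minus other effector cells (horizontal axis) at the 52 regions of these loci listed in both tables at the same coordinates. The line marks equal folds. Treg cells are the higher at 31 regions, and their difference (Treg minus Th2) runs from -2.21 to 3.34.

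The sizes of the folds are not independent between tables. At 38 of 45 regions of these loci listed for Treg cells over both naive and other effector cells at the same coordinates, subtraction gave naive minus other effector as -0.17, within 0.02, and so it did at 2428 of 2761 regions (87.9%) of the series. Likewise Th2 minus naive, through Treg cells, came to -0.01, within 0.02, at 7 of 13 regions of these loci and at 346 of 520 (66.5%) of all. A region that the authors' tables give above 3 populations by nearly the same fold, as in Sh3rf1 and Stk39, therefore holds fewer than 3 separate measurements of size. What sets this constant offset was not tested.

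Away from the fold itself, the 66 regions of these loci higher in Treg than naive or Th2 cells were mostly distal to gene ends. Just 1 of the 66 (1.52%) lay within 1 kb of a gene end, that at the Niban1 start, against 8.83% of all 4609 regions higher in Treg than naive or Th2 cells. Their median width was 414 bp, against 524 bp, but it differed between genes. It was 291 bp at Nsmce2, 294 at Niban1, 367 at Akap13, 441 at Sh3rf1, 526 at Prkch, 618 at Cdk6 and 642 at Stk39. Of all 206 regions 180 (87.4%) lay inside the gene, against 60.2% of all merged regions. The genes are long, with a median of 227 kb against 24.4 kb for genes with a region, and the part of gene length in these shares was not tested. Regions inside the gene and higher in Treg than naive cells were counted per 100 kb of gene, leaving out those outside it. They numbered 7.33 at Niban1, 5.26 at Cdk6, 4.56 at Sh3rf1, 3.96 at Nsmce2 and 3.62 at Prkch. These values ranked 1, 3, 6, 8 and 12 among 2429 genes of at least 100 kb. Stk39 (1.53) ranked 81 and Akap13 (0.669) ranked 307. Only 511 of the 2429 held any region higher in Treg than naive cells inside the gene, and the rest tie at the lowest place. Rank 307, that of Akap13, was therefore past the middle of those 511. The loci described here were chosen on counts of regions higher in Treg cells, so these ranks describe the choice and carry no test. Whether the regions are in exons or introns is not given by the gene table used.

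The genes that work with the 7 in their pathways had Treg-high regions at about the share seen over the series. Of 320 regions around 67 such genes, 15 (4.69%) were higher in Treg than naive and 11 (3.44%) higher in Treg than Th2 cells, against 6.64% and 3.34% of all merged regions. No pathway gene had 3 or more regions in either direction. The JNK module of Sh3rf1 had 5 of 30 regions higher in Treg than naive cells, 2 of them at the scaffold Mapk8ip1 and 2 at the GTPase Rac1, both named after their values were seen. The G1 cyclin and kinase module of Cdk6 had 3 of 66, the WNK and SPAK module of Stk39 1 of 51, the RhoA module of Akap13 1 of 36, and the SMC5/6 complex of Nsmce2 0 of 18. Niban2 and Niban3, the relatives of Niban1, had 2 of 9. The other protein kinase C genes had 3 of 110 regions higher in Treg than naive cells and 70 higher in naive than other effector cells. Prkcq, the T cell receptor kinase of the family, named after its values were seen, had 32 regions with 0 higher in Treg than naive cells, beside 9 of 42 at Prkch.

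The 14 nearest protein-coding neighbours of the 7 genes had 8 of 57 regions (14%) higher in Treg than naive cells, against 6.64% of all merged regions, and 1 of 57 (1.75%) higher in Treg than Th2 cells, against 3.34%. Trib1 above Nsmce2 and Hif1a above Prkch had 3 regions each higher in Treg than naive cells, of 18 and 8 regions, and 0 higher in Treg than Th2 cells. Edem3 above Niban1 and Klhl25 above Akap13 had 1 each, and the other 10 had 0. The region of Edem3 was above all 3 other populations. At the lower end of Prkch the annotated gene LOC115488016 overlaps it by 339 bp and took 5 regions, 4 of them higher in naive than other effector cells, which the nearest-gene rule keeps out of the Prkch count. Likeness of pattern was measured as the cosine between a gene's 9 shares of regions by direction and those of the 7 loci together, over 984 genes with at least 10 merged regions. The most like were Fam53b (0.989), Atg7 (0.989), Osbpl3 (0.988), Swap70 (0.987) and Mcu (0.987), where the median gene had 0.789. Their regions higher in Treg than naive cells numbered, in that order, 4 of 13, 5 of 14, 6 of 20, 6 of 13 and 3 of 12. Genes outside the 7 also had high counts in that direction, 12 at Atxn1, 10 at Ikzf2 and 10 at Rora. Over Th2 cells Ikzf2 had 7, as many as Sh3rf1 and Nsmce2. The 7 genes themselves ranged from 0.834 at Stk39 to 0.985 at Nsmce2.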

How the data were processed

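The 4 populations were compared in 6 deposited tables of differential ATAC-seq regions, made with DiffBind (version not given) per the submitters' processing notes, where the build named is mm9. Aligner, peak caller, normalization and threshold: not given in the sources used here. Column 5 of each deposited table was read as a log2 fold, first-named minus second-named population; the sign was checked on naive marker genes, with 41 regions higher in naive than Treg cells against 1. Coordinates were taken as GRCm38, since with RefSeq GRCm38.p6 genes, 21.9% of midpoints were at most 1 kb from a gene end, and 4.2% to 6.16% after shifts of 10 to 1000 kb. Rows were merged at an overlap of 1 bp and assigned by midpoint with a reach of 100 kb (Python 3.11.15, pandas 2.3.3, numpy 2.4.6), checked on simulated regions. Unused per-sample columns numbered 0. The members and gene lists were chosen with earlier results of these data known. Named regions are, for each gene, the largest Treg fold in each comparison, every region above all 3 populations, and every region lower in Treg than naive or Th2 cells; most-like genes are the 5 with the highest cosine, and pathway genes are named from 3 regions. Other named regions and genes were chosen after their values were seen. Descriptions of naive and other effector cells carry day 10 where titles say 15, and the source label of naive cells says lung where the protocol says lymph node; titles and protocol were followed.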

Additional observations from a re-analysis of the deposited data

How the results depend on the processing

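Of 57 values recomputed under 6 alternatives, 46 stayed within 1.5 times the reported value (0.585 in log2 for medians) and 11 moved. Each value was a count or a median fold within fixed directions, so only its size could move. Keeping only regions at or above the median absolute fold of their own table lowered the count by construction to 38 regions higher in Treg than naive, 13 higher in Treg than Th2, 84 higher in Treg than other effector cells and 8 above all 3 populations, with 4 lower in Treg cells than naive or Th2 cells (from 11) and 55 listed in comparisons without Treg cells (from 119). The same filter raised the median log2 folds to 6.64 over naive, 6.60 over Th2 and 6.39 over other effector cells. Without the 3 tables of other effector cells, 40 regions were listed in comparisons without Treg cells and the median number of merged regions per gene was 13 (from 22). Results that need those tables have no value there. Counts and medians of Treg against naive or Th2 cells come from the other tables, so their staying the same there is no check. A reach of 10 kb, regions inside the gene only, any overlap in place of the midpoint and merging at 50% overlap left each count within 1.5 times. No paired analysis was possible because the tables hold 1 fold per region and no replicate values. Depth, replicate spread and the authors' threshold are unknown, so no region could be weighed by its precision.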
